A study of Mus musculus with 6 samples.

Results

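The clustered Hox genes are the homeobox genes that lie side by side in the Hoxa, Hoxb, Hoxc and Hoxd clusters. They were taken as the protein-coding genes of the mm10 RefSeq annotation whose symbol is Hoxa, Hoxb, Hoxc or Hoxd followed by a digit. There are 39 of them among 21883 protein-coding genes, with 11 in Hoxa, 10 in Hoxb, 9 in Hoxc and 9 in Hoxd. Accessible regions were taken from 50 kb before the first to 50 kb after the last gene of each cluster, which gave 61 of the 193148 regions of the study. Of these, 45 lie between the first and the last Hox gene of their cluster and 16 in the flanks.

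The study asked how lowering Ogt changes chromatin accessibility in dopaminergic neurons of the mouse ventral tegmental area (VTA), a midbrain region of reward processing. Chromatin was profiled by ATAC-seq, which reads out DNA that a transposase can reach, with 3 libraries labelled Ogtflox+/Y (called knockdown here) and 3 labelled Ogtflox-/Y (called control). Ogt is X-linked, and both genotypes have a Y chromosome. Per the design text, animals of both groups received AAV-TH-Cre together with AAV-DIO-H2B-EGFP by injection into the VTA, and nuclei carrying the green fluorescent protein were sorted. The sources used here give neither the animals' age nor the floxed exons, nor do they say that the libraries of a group are from different animals, so p-values reflect variation among libraries that may be technical. For knockdown replicate 1 the 2 labels disagree: the genotype field reads Ogtflox+/Y and the title Ogtflox-/Y.

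HOX proteins are homeodomain transcription factors that give cells their position along the body axis, and the genes of a cluster follow each other on the chromosome in the order in which they are expressed from head to tail. Paralogs 1 to 3 are the anterior genes, with limits in the hindbrain, and paralogs 9 to 13 the posterior genes of trunk, limb and tail. The midbrain lies in front of the region where Hox genes are expressed in the embryo, and outside that region Polycomb complexes hold the clusters silent: PRC2 methylates lysine 27 of histone H3, and PRC1 ubiquitinates histone H2A and compacts the chromatin. Ogt encodes the O-GlcNAc transferase, which attaches a sugar to nuclear and cytoplasmic proteins. In Drosophila the same gene is super sex combs, a gene of the Polycomb group, named for the misexpression of Hox genes in its mutants.

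The library totals were 42606274, 41025728 and 42678585 reads in knockdown replicates 1 to 3 and 34384319, 66853563 and 52895584 reads in control replicates 1 to 3, and 31.0% to 37.0% of knockdown reads and 36.6% to 38.2% of control reads fell in regions. A Hox region held between 1 and 310 reads in a library. Levels are given as CPM, counts scaled to reads in regions by the TMM method of edgeR. Before division by the TMM factors, which ran from 0.941 to 1.064, 3 reads equal 0.190 to 0.236 CPM in knockdown and 0.123 to 0.229 CPM in control libraries. These floors cover counting error only. Levels of different regions are compared as the deposited RPKM, which also divides by region width, and 60 of the 61 Hox regions are 401 bp wide. Over all regions the log-scaled levels had Pearson correlations of 0.931 to 0.970 for libraries of the same group and 0.847 to 0.905 for libraries of different groups. Over the 61 Hox regions these were 0.776 to 0.939 and 0.624 to 0.805. These correlations share depth and base composition and are given as a description.

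The dopaminergic label was checked at marker genes. A region lay within 1 kb of each of 9 dopaminergic markers, with summed levels of 219 to 291 CPM in knockdown and 218 to 423 CPM in control libraries. Most of each sum came from the Th region alone, with 172 to 238 CPM in knockdown and 178 to 378 CPM in control. Each other dopaminergic marker had at most 16.2 CPM in any library, so the sums rest mainly on 1 region. Markers of other cell types also had regions. Summed levels of 3 GABAergic markers were 46.8 to 63.1 CPM in knockdown and 31.0 to 41.3 CPM in control, without overlap. For astrocytes, 4 of 5 markers had a region, with sums of 39.9, 17.6 and 38.0 CPM in knockdown replicates 1 to 3 and 15.5 to 17.4 CPM in control, and Aqp4 had none within 1 kb. For serotonergic neurons of the hindbrain, 4 of 5 markers had a region, with sums of 36.2 to 40.2 CPM in knockdown and 33.3 to 38.4 CPM in control, and Fev had none. Within that sum the markers moved in opposite directions. Tph2, encoding the tryptophan hydroxylase of serotonin synthesis, had 4.91, 4.27 and 4.12 CPM in knockdown and 6.83, 7.76 and 6.34 CPM in control (log2 fold change -0.66, edgeR adjusted p = 0.012). Slc6a4, encoding the serotonin transporter, had 8.84, 10.7 and 6.97 CPM in knockdown and 13.8, 13.6 and 13.7 CPM in control (-0.64, edgeR adjusted p = 0.0045). Both were lower with the groups apart; the Tph2 call was lost without control replicate 2 (edgeR adjusted p = 0.081). Gata3, a transcription factor gene also used by GABAergic neurons, had 16.8, 14.2 and 16.1 CPM in knockdown and 5.77, 8.70 and 6.9999 CPM in control (1.11, edgeR adjusted p = 7.8e-05), and Gata2 was not called (0.28, edgeR adjusted p = 0.19). Of the remaining types, 6 of 6 oligodendrocyte markers summed to 36.0 to 63.0 CPM in knockdown and 47.7 to 51.1 CPM in control. Endothelial and mural markers (3 of 4) had 5.22 to 9.97 CPM in knockdown and 8.20 to 11.3 CPM in control, and 1 of 2 glutamatergic markers had 7.40 to 13.8 CPM in knockdown and 10.2 to 13.4 CPM in control. Microglial markers were near the floor, with 1 of 4 found, at 0.597 to 1.96 CPM in knockdown and 0.380 to 0.858 CPM in control, and Cx3cr1, Tmem119 and Csf1r had no region. The part of these cells in the results was not tested. The most accessible region of Ogt within 1 kb of its bounds had 17.9, 14.96 and 14.7 CPM in knockdown and 11.1, 11.1 and 9.08 CPM in control (log2 fold change 0.61, edgeR adjusted p = 0.0032), and it cannot check the genotype, as no source here places the floxed exons.

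The Hox clusters held accessible regions at close to the density of all chromosomes, but fewer Hox genes than other genes had one at the start, and those regions were weakly accessible. There were 6.84 regions per 100 kb in the cluster windows, 9.14 per 100 kb between the first and last Hox genes, and 7.54 per 100 kb between the first and last regions of all chromosomes. The median Hox region had 1.34 RPKM in knockdown and 1.98 RPKM in control, against 1.80 RPKM in knockdown and 2.25 RPKM in control over all regions. When all regions were ranked into 10 deciles of accessibility, 38 Hox regions were in deciles 1 to 5, 22 in deciles 6 to 9 and 1 in decile 10. Fewer nuclei of a type and less accessible chromatin per nucleus cannot be told apart in such bulk libraries.

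At gene starts the Hox genes stood far below other genes. A region within 1 kb of the start was found at 19 of 39 Hox genes (48.7%), against 65.6% of all coding genes; where the promoter table gives no start, both gene bounds were used. The most accessible of these regions had a median of 1.34 RPKM in knockdown and 1.96 RPKM in control over the 19 Hox genes, with a range of 0.949 to 3.90 RPKM in control. Over the coding genes with such a region the medians were 18.97 RPKM in knockdown and 19.5 RPKM in control, and the Hox median lies at percentile 5.66 of the control values. The 25 ParaHox and other developmental regulator genes, which Polycomb holds silent in many tissues, had a region at 13 genes and a median of 1.80 RPKM in knockdown and 2.59 RPKM in control. The genes of PRC2 had medians of 24.5 RPKM in knockdown and 27.3 RPKM in control, and those of PRC1 25.5 RPKM in knockdown and 23.9 RPKM in control. By cluster, the control median was 2.87 RPKM at 4 Hoxa genes, 1.34 RPKM at 5 Hoxb genes, 1.58 RPKM at 5 Hoxc genes and 2.52 RPKM at 5 Hoxd genes. A region inside the gene was found at 21 Hox genes, and 15 had none inside and none within 1 kb of the start.

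The Hox starts were not poor in CpG dinucleotides. CpG-rich promoters are open in most cells, and Polycomb is known to bind the CpG-rich starts of silent developmental genes. The RefSeq promoter table (GRCm38.p6, which is mm10) holds 300-base windows, 250 bases before to 50 bases after a start, for 22 of the 39 Hox genes, in 24 rows. The windows below show the Hoxd9 and Hoxd3 starts, each with a called region within 1 kb, the most CpG-rich Hox start, that of Hoxa13, where no region was found, and the start of the dopaminergic gene Th, encoding tyrosine hydroxylase, for comparison. Capitals mark each CG, read 5′ to 3′ on the strand of the gene. The Hoxd9 window is chr2:74697513-74697812 on the plus strand, the Hoxd3 window chr2:74711743-74712042 on the plus strand, the Hoxa13 window chr6:52260831-52261130 on the minus strand and the Th window chr7:142899946-142900245 on the minus strand.
Hoxd9: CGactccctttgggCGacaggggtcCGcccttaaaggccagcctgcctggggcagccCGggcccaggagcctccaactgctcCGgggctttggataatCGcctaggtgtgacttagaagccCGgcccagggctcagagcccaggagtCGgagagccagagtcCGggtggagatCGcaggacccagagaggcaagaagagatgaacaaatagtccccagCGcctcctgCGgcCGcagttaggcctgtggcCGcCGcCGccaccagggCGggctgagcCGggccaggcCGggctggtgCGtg
Hoxd3: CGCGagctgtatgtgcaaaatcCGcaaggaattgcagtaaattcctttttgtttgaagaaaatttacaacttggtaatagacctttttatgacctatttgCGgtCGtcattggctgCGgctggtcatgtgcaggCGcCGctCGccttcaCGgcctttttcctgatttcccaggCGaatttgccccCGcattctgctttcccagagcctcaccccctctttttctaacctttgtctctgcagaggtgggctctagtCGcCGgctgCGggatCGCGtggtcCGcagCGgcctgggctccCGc
Hoxa13: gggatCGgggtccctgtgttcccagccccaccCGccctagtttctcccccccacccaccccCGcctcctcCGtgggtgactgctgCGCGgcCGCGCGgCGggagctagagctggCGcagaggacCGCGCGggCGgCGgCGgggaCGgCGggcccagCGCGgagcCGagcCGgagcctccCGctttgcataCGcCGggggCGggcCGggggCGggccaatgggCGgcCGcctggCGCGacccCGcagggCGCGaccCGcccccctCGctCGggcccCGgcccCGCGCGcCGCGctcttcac
Th: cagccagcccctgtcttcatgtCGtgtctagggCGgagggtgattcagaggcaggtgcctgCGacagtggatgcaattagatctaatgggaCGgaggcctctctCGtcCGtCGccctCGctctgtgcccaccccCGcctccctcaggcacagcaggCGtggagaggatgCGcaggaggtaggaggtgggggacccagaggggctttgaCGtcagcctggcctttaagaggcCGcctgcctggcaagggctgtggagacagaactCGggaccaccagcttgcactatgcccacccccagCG

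The Hoxd9 and Hoxd3 windows hold 20 CG each, the Hoxa13 window 45 and the Th window 15. The region at the Th start had 238, 182 and 172 CPM in knockdown and 178, 378 and 245 CPM in control (log2 fold change -0.44, edgeR adjusted p = 0.076). The Hoxd9 and Hoxd3 regions had at most 3.799 and 2.42 CPM in any library. Over the 24 Hox windows the median was 14.5 CG (4 to 45), and all held the motif CG, which reads the same on both strands. Over 21238 windows of other coding genes the median was 13 CG, and 95.4% held at least 1.

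A region was found within 1 kb of 7 Hox starts (29.2%) and of 65.2% of the other starts. The 7 Hox starts had a median of 2.13 RPKM in knockdown and 2.52 RPKM in control, with 3.799 RPKM as the highest control value, against 18.99 RPKM in knockdown and 19.6 RPKM in control at the other starts. Among windows with at least the Hox median of CG, 5 of 12 Hox starts (41.7%) and 94.3% of 9944 other starts had a region, and their medians were 1.69 RPKM in knockdown and 1.98 RPKM in control at Hox starts, and 22.8 RPKM in knockdown and 22.9 RPKM in control at the others. Of those other starts with a region, 3.97% were at or below the highest Hox value. In the plot of CpG number against accessibility the Hox starts stayed low at all CpG numbers, while the median of other starts climbed with CpG number and then levelled.

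**Figure D1:**
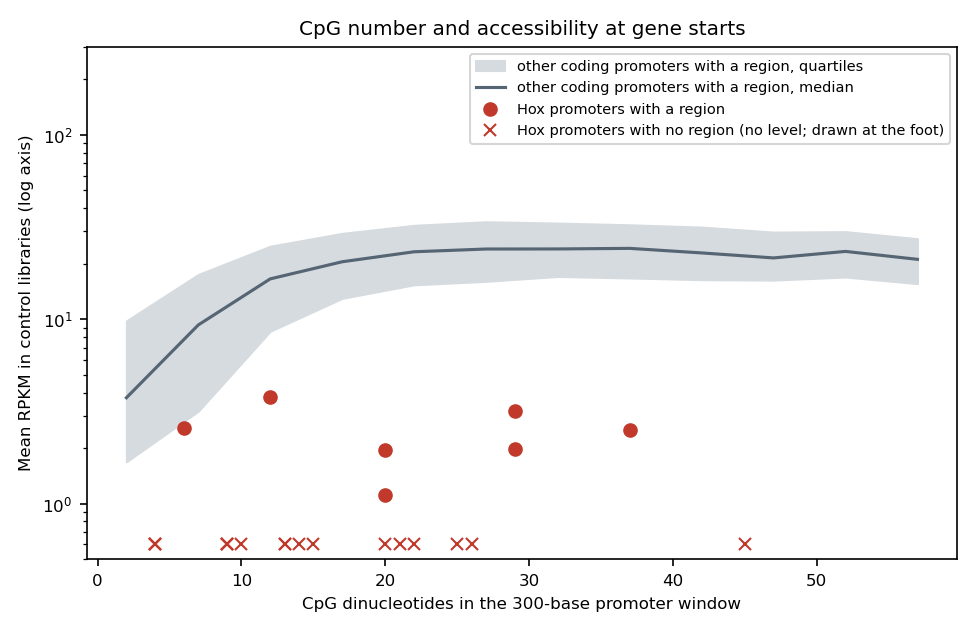
CpG dinucleotides in the 300-base promoter window (horizontal) against mean RPKM of the most accessible region within 1 kb of the start in the 3 control libraries (vertical, log axis). Red circles are the 7 Hox starts with a region, crosses the Hox starts with none, drawn at the foot without a level, and the line and band the median and quartiles of other coding starts with a region in bins of 5 CpG; no Hox start was above 3.799 RPKM.

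Between the groups, the Hox clusters leaned towards lower accessibility in knockdown, most in Hoxb and Hoxc, while the Hoxd cluster had only higher calls. The deposited counts of 191693 regions entered edgeR's quasi-likelihood test, and a region with a Benjamini-Hochberg adjusted p under 0.05 is called higher or lower in knockdown. All 61 Hox regions passed the filter on low counts. Of these, 4 were called higher and 12 lower, 6.56% and 19.7%, against 15.4% and 12.7% of all regions tested. In deciles 1 to 9 of accessibility, where 60 of the Hox regions lie, 12.8% of regions were called higher and 13.5% lower. The median log2 fold change was -0.42 over the Hox regions and -0.0065 over all regions, and 47 of 61 Hox regions (77.0%) had a negative value, against 50.4% of all regions. Every knockdown library lay below every control library at 21 Hox regions (34.4%) and above at 3 (4.92%), where over all regions these shares were 21.2% and 21.0%. The lists and members were chosen with results known, so these counts are descriptions and carry no test of the clusters as a set.

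These counts moved with the choices made. With grouping by title edgeR called 0 of 61 Hox regions and 0 of all regions, with 13 Hox regions at an unadjusted p under 0.05, while the Hox median stayed at -0.45. With DESeq2, 2 Hox regions were called higher and 6 lower, against 10.9% and 7.69% of all regions. Without knockdown replicate 3 the lower calls numbered 5 of 60 (8.33%), and the median was -0.27; without control replicate 2 they numbered 4 of 60 (6.67%). Over all regions 9.04% and 7.64% were lower in those fits, so the share of lower calls at Hox regions was no longer above that of all regions. In the fits without knockdown replicate 1 or 2, 24.6% of Hox regions were lower each time, against 9.15% and 13.0% of all regions. Without control replicate 1 these shares were 13.1% of Hox regions and 7.69% of all regions, and without control replicate 3 they were 14.8% and 9.6%. Higher calls were 3, 4 and 3 Hox regions without knockdown replicates 1, 2 and 3, against 12.5%, 15.5% and 12.5% of all regions, and 1, 3 and 3 without control replicates 1, 2 and 3, against 12.1%, 9.94% and 11.2%. Scaling by library totals, which moved the median of all regions to -0.27, gave 1 higher and 27 lower, against 6.85% and 24.6% of all regions; the Hox median there was -0.68, and its distance from the median of all regions was -0.42 as with TMM.

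**Figure D2:**
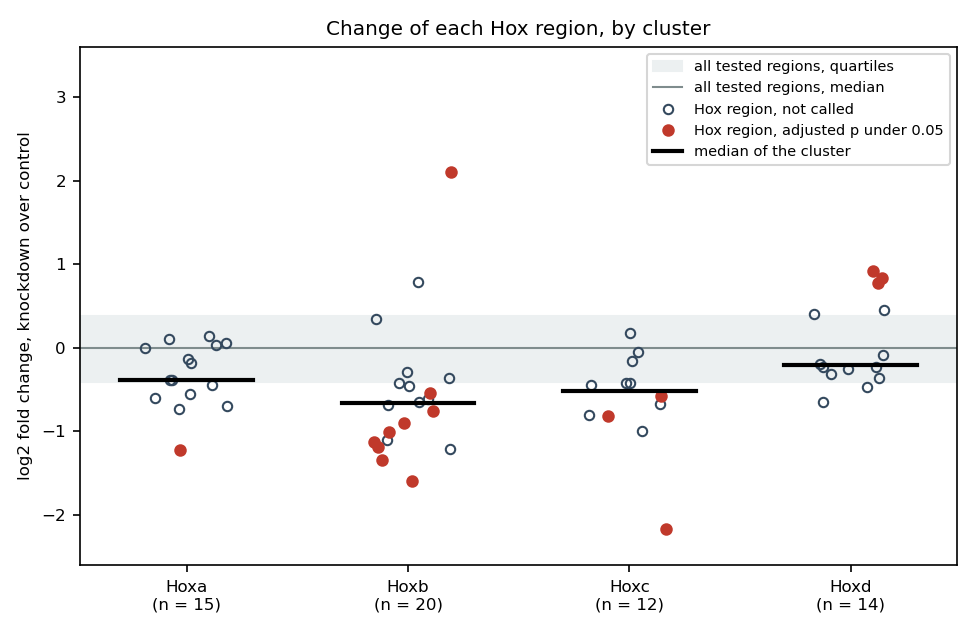
Log2 fold change of knockdown over control for each Hox region, by cluster. Filled circles have an edgeR adjusted p under 0.05, bars are the cluster medians, and the band and line are the quartiles and median of all tested regions; the called regions lie below 0 in Hoxa, Hoxb and Hoxc except 1 in Hoxb, and above 0 in Hoxd.

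Cluster by cluster, the calls were 0 higher and 1 lower of 15 in Hoxa, 1 and 8 of 20 in Hoxb, 0 and 3 of 12 in Hoxc, and 3 and 0 of 14 in Hoxd. Median log2 fold changes were -0.38, -0.67, -0.51 and -0.21 in that order. Over all regions 15.4% were called higher and 12.7% lower, with a median of -0.0065. The Hoxd median turned to 0.029 without knockdown replicate 3, and the Hoxa median was -0.13 there. The difference between clusters was not tested, since regions of a cluster are not replicates.

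Summed over its regions, each cluster was read library by library. Hoxb had 44.4, 32.5 and 33.2 CPM in knockdown replicates 1 to 3 and 49.6, 48.7 and 48.1 CPM in control replicates 1 to 3. Hoxc had 20.2, 20.1 and 18.3 CPM in knockdown and 36.6, 31.9 and 27.4 CPM in control. In both clusters every knockdown library was below every control library, and the knockdown mean was 75.2% of control in Hoxb and 61.1% in Hoxc. Single regions weighed on these sums. Without the region of the largest difference, that near Hoxb6 in Hoxb (4.52 CPM higher in knockdown) and that in the Hoxc13 flank in Hoxc (which fell by 4.503 CPM), the means were 64.9% of control in Hoxb and 69.8% in Hoxc, so the order of the 2 clusters turned. The groups stayed apart in both; this alternative was chosen after seeing the data. Hoxa had 55.3, 46.7 and 38.97 CPM in knockdown and 50.6, 59.7 and 56.3 CPM in control. Hoxd had 38.1, 40.5 and 27.8 CPM in knockdown and 31.6, 37.5 and 33.1 CPM in control. There the groups overlapped, with knockdown means at 84.6% of control in Hoxa and 104% in Hoxd. Knockdown replicate 3 was the lowest library of its group in Hoxa, Hoxc and Hoxd. Over all 61 regions the sums were 157.9, 139.7 and 118.3 CPM in knockdown and 168.3, 177.9 and 164.8 CPM in control.

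**Figure D3:**
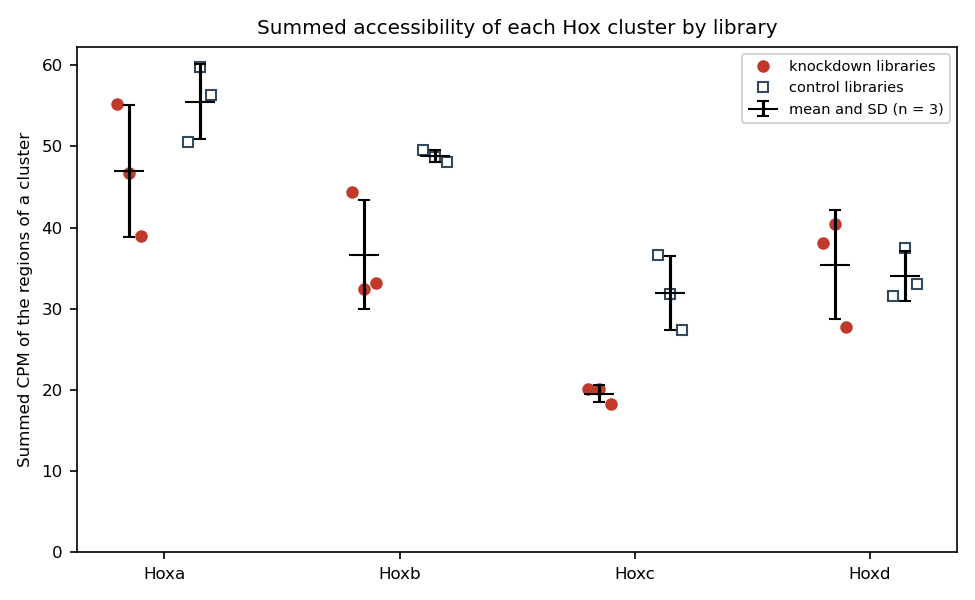
CPM summed over the regions of each cluster, with 1 point a library, knockdown left of control, and mean and SD (n = 3 each). Groups are apart in Hoxb and Hoxc and overlap in Hoxa and Hoxd.

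By position along the clusters there was no part without calls. Regions nearest to anterior genes had 1 higher and 5 lower calls of 24 (median log2 fold change -0.53), those nearest to paralogs 4 to 8 had 1 and 4 of 12 (-0.39), and those nearest to posterior genes 2 and 3 of 25 (-0.42). Regions inside the bounds of Hoxa3, which span Hoxa4, Hoxa5 and Hoxa6, counted as anterior. So did those inside the bounds of Hoxb3, which span Hoxb4, and of Hoxd3, which span Hoxd4. The lower call 93 bp beyond a bound of Hoxa4 is among those inside Hoxa3, so these classes are approximate. Between the first and last genes there were 3 and 8 of 45 (-0.42), and in the flanks 1 and 4 of 16 (-0.40). Over all regions 15.4% were called higher and 12.7% lower. At the window edges, the 8 outermost regions inside ranged from -2.17 to 0.92 with 1 higher and 2 lower. The 8 next regions outside, of which 1 was not tested, ranged from -0.54 to 0.47 with 1 higher and 0 lower.

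The changes at Hox gene starts were set beside those at all gene starts. The 22 regions within 1 kb of a Hox start, or of a gene bound where no start is given, had 3 higher and 3 lower calls and a median log2 fold change of -0.51. Over all gene-start regions 36.7% were called higher and 5.31% lower, with a median of 0.25. These sets differ in level, with a median control percentile of 42.7 for the Hox gene-start regions and 91.4 for all gene-start regions. In deciles 4 and 5 of all regions, nearer the Hox level, 11.05% and 11.57% were higher and 12.03% and 14.95% lower. The median log2 fold changes of these deciles were -0.073 and -0.11. Among the Hox regions the higher calls were at Hoxd3, Hoxd9 and a bound of Hoxb6. The lower ones were at bounds of Hoxa4, Hoxb7 and Hoxc6. Only Hoxd3 and Hoxd9 of these genes have a given start. All Hoxa genes with a given start are on the minus strand, and all such Hoxb and Hoxc genes on the plus strand. If the other genes of each cluster share its strand, the bounds at Hoxa4, Hoxb7 and Hoxc6 are starts. The bound at Hoxb6 would then be a gene end, and its higher call would not lie at a start. The 13 gene-start regions of ParaHox and other developmental regulators had 0 higher and 2 lower calls and a median of -0.45. Their median control percentile was 55.8, and in decile 6 of all regions 11.5% were higher and 16.9% lower. Under library totals 1 Hox gene-start region was higher (4.55%) and 12 lower (54.5%), against 9.45% and 12.7% of all gene starts, and without control replicate 1, 1 was higher, against 33.4%. With loess curves 3 were higher (13.6%) and 5 lower (22.7%), against 20.2% and 10.4% of all gene starts.

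The highest fold change among Hox regions was near Hoxb6, a central gene expressed in trunk mesoderm and spinal cord in the embryo. The region (chr11:96301813-96302213) lies 244 bp beyond the Hoxb6 bound of higher chromosome position and inside Hoxb5os, a long noncoding RNA gene. Hoxb1, Hoxb4 and Hoxb8, the Hoxb genes with a given start, are on the plus strand. If Hoxb6 is as well, that bound is its end. The region also lies within 3 kb of a bound of Hoxb5. It had 8.46, 1.504 and 7.77 CPM in knockdown replicates 1 to 3 and 1.52, 1.37 and 1.28 CPM in control (log2 fold change 2.11 ± 0.40 standard error, edgeR adjusted p = 0.0011). Knockdown replicates 1 and 3 were high, and replicate 2 lay within the control range. The call held without any single library (highest edgeR adjusted p = 0.011), and with knockdown replicate 2 alone against the controls the log2 fold change was 0.11 (edgeR adjusted p = 0.90). The same libraries were high at Gfap, an astrocyte marker, which had 10.95, 2.85 and 12.7 CPM in knockdown and 0.683, 1.01 and 0.709 CPM in control. Of the other astrocyte markers with a region, Aldh1l1 had 9.59, 2.93 and 8.23 CPM in knockdown and 2.73, 2.65 and 3.17 CPM in control, and Sox9 had 15.7, 8.31 and 14.01 CPM in knockdown and 9.57, 8.31 and 9.65 CPM in control. Slc1a3 did not follow them, with 3.62, 3.48 and 2.99 CPM in knockdown and 3.34, 3.47 and 3.83 CPM in control. Replicates 1 and 3 were also high at markers of other types. The mural marker Pdgfrb had 4.38, 1.35 and 3.92 CPM in knockdown and 0.835, 1.17 and 1.42 CPM in control, and Olig2, of the oligodendrocyte lineage, had 6.57, 1.82 and 4.18 CPM in knockdown and 1.898, 2.07 and 2.70 CPM in control. The part of these cells in the Hoxb6 result was not tested.

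The other higher calls were all in Hoxd. A region inside Evx2, a homeobox gene next to Hoxd13 (chr2:74655670-74656070), had 3.47, 3.56 and 2.32 CPM in knockdown and 1.37, 2.07 and 1.37 CPM in control (log2 fold change 0.92 ± 0.26 standard error, edgeR adjusted p = 0.015). The start of Hoxd9, a posterior gene of trunk and limb (chr2:74697758-74698158), had 3.40, 3.799 and 3.39 CPM in knockdown and 1.37, 2.42 and 2.22 CPM in control (0.77 ± 0.24 standard error, edgeR adjusted p = 0.023). The start of Hoxd3, an anterior gene of hindbrain and neck (chr2:74712054-74712454), had 2.42, 1.82 and 2.06 CPM in knockdown and 0.835, 1.05 and 1.56 CPM in control (0.84 ± 0.29 standard error, edgeR adjusted p = 0.038). At all 3 the groups did not overlap, and control replicate 1 was the lowest library. The Hoxd3 region also overlaps the noncoding genes Gm38462 and Hoxd3os1, and it shares no base with the Hoxd3 promoter window printed above, while the Hoxd9 region shares 55 bases with its window.

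None of these calls held without control replicate 1, where the edgeR adjusted p was 0.055 for Evx2, 0.085 for Hoxd9 and 0.12 for Hoxd3. The Evx2 call was also lost without control replicate 3 (0.067), and the Hoxd9 call without knockdown replicate 2 (0.052). The Hoxd3 call was lost as well without control replicate 2 (0.14) and without knockdown replicate 1 (0.12) or 3 (0.077). DESeq2 gave adjusted p = 0.060 for Hoxd9 and 0.12 for Hoxd3, and with library totals the edgeR adjusted p was 0.062 for Evx2, 0.13 for Hoxd9 and 0.15 for Hoxd3. Among the other Hoxd genes, Hoxd8 had 3.40, 4.75 and 2.79 CPM in knockdown and 1.67, 3.43 and 2.89 CPM in control (0.40, edgeR adjusted p = 0.27). Hoxd13, which patterns digits and genitalia, had 1.74, 2.22 and 1.79 CPM in knockdown and 2.05, 3.00 and 2.74 CPM in control (-0.47, edgeR adjusted p = 0.17), with knockdown replicate 2 above control replicate 1. Hoxd1 had 3.62, 3.01 and 1.73 CPM in knockdown and 2.81, 3.36 and 3.64 CPM in control (-0.25, edgeR adjusted p = 0.48). The most accessible Hoxd region, inside Hoxd3 (chr2:74715775-74716399), had 7.25, 7.20 and 4.12 CPM in knockdown and 6.45, 7.61 and 5.44 CPM in control (-0.084, edgeR adjusted p = 0.80).

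The largest fall among Hox regions was in the flank of Hoxc. A region 42480 bp from Hoxc13, a posterior gene also active in hair follicles (chr15:102878251-102878651), had 0.755, 0.712 and 2.12 CPM in knockdown and 8.73, 4.68 and 3.69 CPM in control (log2 fold change -2.17 ± 0.37 standard error, edgeR adjusted p = 4.6e-04). The groups were apart, and the call held without any single library (highest edgeR adjusted p = 0.0047) and in each other alternative but the grouping by title. Inside Hoxc6, a gene of the thoracic and forelimb level (chr15:102999169-102999569), knockdown libraries had 2.34, 2.30 and 2.26 CPM and control libraries 4.18, 4.72 and 3.22 CPM (-0.81 ± 0.23 standard error, edgeR adjusted p = 0.013). The most accessible Hoxc region, 2722 bp from Hoxc8 (chr15:102987417-102987817), had 5.21, 5.22 and 3.45 CPM in knockdown and 7.36, 6.59 and 6.76 CPM in control (-0.58 ± 0.19 standard error, edgeR adjusted p = 0.031). Both sets of libraries were apart. The Hoxc6 call was lost without control replicate 2 (edgeR adjusted p = 0.091). The Hoxc8 call was lost without control replicate 1, 2 or 3 (0.097, 0.078 and 0.070), without knockdown replicate 3 (0.14), with loess curves (0.061) and in DESeq2 (adjusted p = 0.057). At the other Hoxc gene starts, Hoxc5, Hoxc8, Hoxc10 and Hoxc13 had log2 fold changes of -0.42, -0.050, -0.44 and -0.81 at their most accessible region and were not called.

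In Hoxb the lower calls ran from one flank to the other. Inside Hoxb3, an anterior gene of the hindbrain, 2 regions fell. The first (chr11:96341918-96342318) had 0.982, 0.396 and 0.863 CPM in knockdown and 1.67, 2.50 and 2.60 CPM in control (log2 fold change -1.60 ± 0.33 standard error, edgeR adjusted p = 0.0019). The other (chr11:96346523-96346923), which overlaps the noncoding gene Hoxb3os, had 1.13, 0.237 and 0.398 CPM in knockdown and 1.44, 1.17 and 1.47 CPM in control (-1.19 ± 0.42 standard error, edgeR adjusted p = 0.043). Neither overlapped between groups, though in the second knockdown replicate 1 came close to control replicate 2 and the levels rest on few reads. The first call held without any single library (highest edgeR adjusted p = 0.014). The second was lost without any single library but knockdown replicate 1 (edgeR adjusted p = 0.073 to 0.17) and in DESeq2 (adjusted p = 0.12).

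Elsewhere in the gene span, a region inside Hoxb8 and within 1 kb of a bound of Hoxb7 (chr11:96284294-96284694) had 1.66, 1.58 and 0.730 CPM in knockdown and 2.43, 2.93 and 2.46 CPM in control (log2 fold change -1.003 ± 0.29 standard error, edgeR adjusted p = 0.016). Hoxb8 acts in the embryonic trunk and in blood progenitors, Hoxb7 in the trunk. The most accessible region of Hoxb, 202 bp from Hoxb8 (chr11:96278799-96279199), had 4.91, 5.54 and 4.05 CPM in knockdown and 8.43, 6.36 and 6.43 CPM in control (-0.54 ± 0.19 standard error, edgeR adjusted p = 0.041). A region in the noncoding gene Gm53, 9427 bp from Hoxb9 (chr11:96261503-96261903), had 0.529, 0.633 and 0.465 CPM in knockdown and 0.911, 1.68 and 1.42 CPM in control (-1.35 ± 0.37 standard error, edgeR adjusted p = 0.012). In all 3 the groups were apart. Without knockdown replicate 3 none of the 3 was called (edgeR adjusted p = 0.095, 0.15 and 0.052 in that order), nor without control replicate 2 (0.079, 0.069 and 0.085). The region 202 bp from Hoxb8 was also not called without knockdown replicate 1 (0.076) or control replicate 1 or 3 (0.17 and 0.059), with loess curves (0.070), or in DESeq2 (adjusted p = 0.076). DESeq2 gave adjusted p = 0.051 for the region inside Hoxb8 and 0.066 for that in Gm53.

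The flanks of Hoxb held the remaining lower calls. Inside Ttll6, a tubulin polyglutamylase gene 48298 bp from Hoxb13 (chr11:96145618-96146018), knockdown libraries had 2.87, 1.98 and 1.46 CPM and control libraries 3.42, 3.94 and 4.26 CPM (log2 fold change -0.90 ± 0.25 standard error, edgeR adjusted p = 0.013). A region 29654 bp from Hoxb1 (chr11:96397908-96398308) had 0.906, 0.712 and 0.597 CPM in knockdown and 1.898, 1.29 and 1.75 CPM in control (-1.13 ± 0.33 standard error, edgeR adjusted p = 0.016). One 39417 bp from Hoxb1 (chr11:96407671-96408071) had 3.10, 3.88 and 3.12 CPM in knockdown and 5.31, 6.20 and 5.39 CPM in control (-0.75 ± 0.20 standard error, edgeR adjusted p = 0.0088). Each lay wholly lower in knockdown. The Ttll6 call was lost without knockdown replicate 3 (edgeR adjusted p = 0.076) or control replicate 2 or 3 (0.051 and 0.052). The call 29654 bp from Hoxb1 was lost without knockdown replicate 3 (0.075) or control replicate 1 or 3 (0.056 and 0.054) and in DESeq2 (adjusted p = 0.072), and that 39417 bp from Hoxb1 without control replicate 2 (0.061). Among Hoxb gene starts that were not called, Hoxb2, Hoxb5 and Hoxb9 had log2 fold changes of -1.21, -0.37 and -1.11; the Hoxb2 region held 1 read in knockdown replicate 2.

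In Hoxa 1 region was called. It lies within the bounds of Hoxa3, an anterior gene of hindbrain and neck, and 93 bp beyond a bound of Hoxa4 (chr6:52191796-52192196), and overlaps the noncoding gene LOC115490409. It had 2.11, 1.504 and 1.39 CPM in knockdown and 3.57, 4.14 and 3.97 CPM in control (log2 fold change -1.23 ± 0.24 standard error, edgeR adjusted p = 0.0013). The groups were apart, and the call held without any single library (highest edgeR adjusted p = 0.011). Of the gene-start regions not called, those of Hoxa5 and Hoxa10 had -0.73 and -0.56. The most accessible Hox region of all (chr6:52305890-52306290) lies in the flank, 45010 bp from Hoxa13 and 7208 bp from Evx1, its nearest coding gene. It had 12.7, 11.8 and 10.8 CPM in knockdown and 8.73, 12.1 and 11.7 CPM in control (0.10, edgeR adjusted p = 0.64), with overlapping groups. It was the 1 Hox region in the top decile.

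**Figure D4:**
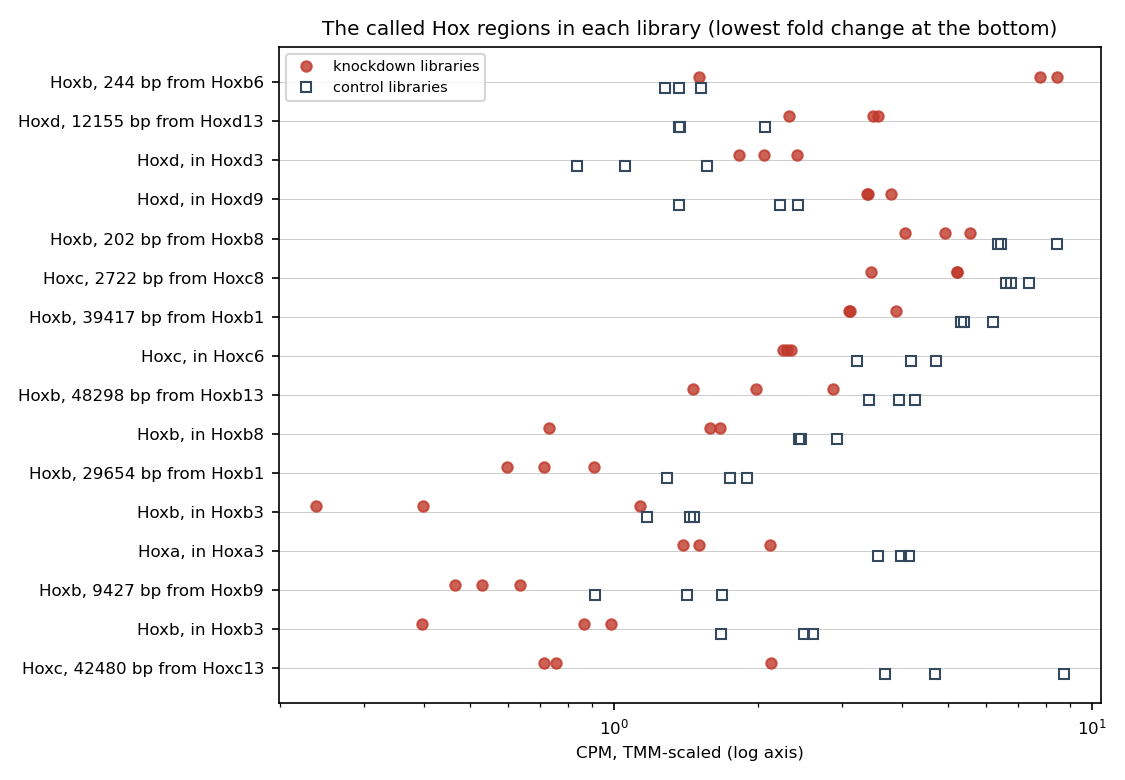
CPM (log axis) of the 16 called Hox regions in each library, ordered by fold change with the highest at the top; filled circles are knockdown libraries and open squares control libraries. Groups are apart in each row except the region 244 bp from Hoxb6, where knockdown replicate 2 lies among the control libraries.

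The clusters also carry miRNA genes, which are shown because Mir196a-1 is the miRNA gene nearest to a called region. The mature 5p sequences are given as in RefSeq (GRCm38.p6), with the seed, bases 2 to 8, in capitals. The miR-196 family is known to repress Hox messenger RNAs, Hoxb8 among them.
mmu-miR-196a-5p: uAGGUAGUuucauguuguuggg
mmu-miR-196b-5p: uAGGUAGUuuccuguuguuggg
mmu-miR-10a-5p: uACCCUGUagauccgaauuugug
mmu-miR-10b-5p: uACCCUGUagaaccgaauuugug
mmu-miR-615-5p: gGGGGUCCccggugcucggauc

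The miR-196 sequences share the seed AGGUAGU and the miR-10 sequences ACCCUGU, and miR-615-5p, with GGGGUCC, shares its seed with none of them. The mature arm of Mir196a-1 lies 3284 bp from the lower region in Gm53. That of Mir196a-2 in Hoxc lies 2230 bp from a region with 0.684 ± 0.138 CPM in knockdown and 1.41 ± 0.5003 CPM in control (SD, n = 3 each; log2 fold change -0.9999, edgeR adjusted p = 0.0501). That of Mir196b in Hoxa lies 2303 bp from a region with 0.807 ± 0.604 CPM in knockdown and 0.706 ± 0.104 CPM in control (SD, n = 3 each; log2 fold change 0.15, edgeR adjusted p = 0.84). That of Mir615 in Hoxc lies nearest of all to a Hox region, 390 bp from the Hoxc5 region, which had 2.75 ± 0.285 CPM in knockdown and 3.71 ± 0.21 CPM in control (SD, n = 3 each; log2 fold change -0.42, edgeR adjusted p = 0.15). Those of Mir10a in Hoxb and Mir10b in Hoxd lie 5272 and 9675 bp from regions at log2 fold changes of -0.62 and -0.084, not called (edgeR adjusted p = 0.19 and 0.80). Expression of these miRNAs was not measured.

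The genes that hold or open the Hox clusters were read at their starts. Of 12 genes of PRC2, with 17 regions, 4 of 16 tested regions were higher and 0 lower, and of 20 genes of PRC1 13 of 43 regions were higher and 2 lower, where all gene starts had 36.7% higher and 5.31% lower. Aebp2, an accessory subunit of PRC2, had 48.9, 41.6 and 42.6 CPM in knockdown and 24.7, 31.6 and 28.2 CPM in control (log2 fold change 0.65, edgeR adjusted p = 4.0e-04). Bmi1 and Phc3, subunits of PRC1, rose by 0.73 and 0.76 (edgeR adjusted p = 0.0021 and 7.4e-04). At Aebp2, Bmi1 and Phc3 no library of one group reached the other group. Regions of Pcgf5 and Kdm2b, also of PRC1, had -1.32 and -0.51 (edgeR adjusted p = 0.022 for each); both calls were lost without knockdown replicate 1 (0.058 and 0.078), control replicate 1 (0.11 and 0.077) or control replicate 2 (0.072 and 0.098). Rbbp7, a histone-binding subunit of PRC2, had 0.45 (edgeR adjusted p = 0.0050), which library totals brought to 0.18 (0.29).

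Of 10 genes of enzymes that oppose or partner Polycomb, 7 of 22 regions were higher (31.8%) and 1 lower (4.55%), near the 36.7% and 5.31% of all gene starts. Kmt2d, a histone H3 lysine 4 methyltransferase gene, had 13.0, 13.9 and 17.3 CPM in knockdown and 5.85, 9.87 and 6.67 CPM in control (log2 fold change 0.95, edgeR adjusted p = 8.5e-04). Asxl2, a partner of a histone H2A deubiquitinase, had 0.61 (edgeR adjusted p = 0.0011), which library totals brought to 0.35 (0.053). The lower call, at Kmt2b (-0.34, edgeR adjusted p = 0.024), was lost without knockdown replicate 2 or 3 or any single control library (0.061 to 0.089).

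Of 9 genes of TALE homeobox proteins, which bind DNA together with HOX proteins, 6 of 17 regions were higher (35.3%) and 1 lower (5.88%), close to the 36.7% and 5.31% of all gene starts. Pbx3 had 0.58 (edgeR adjusted p = 0.0046), Meis2 0.77 (0.048) and Pknox2 -0.84 (0.0088). With library totals the Pbx3 and Meis2 calls were lost (edgeR adjusted p = 0.13 and 0.18). The Meis2 call was lost without knockdown replicate 1 or 3 (0.36 and 0.061) or control replicate 1 or 3 (0.16 and 0.15), and that of Pknox2 without control replicate 2 (0.061). Meis2 had 8.38, 3.25 and 4.78 CPM in knockdown and 2.51, 4.10 and 2.84 CPM in control, so the groups overlapped.

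Of 12 upstream regulators of Hox genes, 3 of 17 regions were higher (17.6%) and 6 lower (35.3%), against 36.7% and 5.31% of all gene starts. Their median control percentile was 85.9, and in decile 9 of all regions 18.8% were higher and 17.7% lower. Egr2, a hindbrain regulator of Hox genes that also responds to neuronal activity, had 4.91, 3.17 and 4.12 CPM in knockdown and 14.1, 15.1 and 17.5 CPM in control (log2 fold change -1.93, edgeR adjusted p = 7.7e-07). Cyp26a1, which degrades retinoic acid, had 0.906, 1.35 and 1.13 CPM in knockdown and 2.73, 3.86 and 3.93 CPM in control (-1.65, edgeR adjusted p = 3.0e-04). Both were far apart between groups. Rarg, a retinoic acid receptor gene, was higher at 2 regions, by 0.54 and 0.46 (edgeR adjusted p = 0.0046 and 0.041). Both calls were lost with library totals (edgeR adjusted p = 0.18 and 0.42). The second call was also lost without knockdown replicate 1 or 3 (0.12 each) or any single control library (0.066 to 0.12).

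Among the other Polycomb-held regulators, Gsx1, a ParaHox gene, had 1.43, 1.19 and 1.19 CPM in knockdown and 2.13, 3.59 and 2.98 CPM in control (log2 fold change -1.21, edgeR adjusted p = 0.0033), with the groups apart. Over all 6 lists 33 of 128 regions were higher (25.8%) and 12 lower (9.38%), against 36.7% and 5.31% of all gene starts. With library totals 4 were higher (3.13%) and 20 lower (15.6%), where all gene starts had 9.45% and 12.7%. With loess curves 12 were higher (9.38%) and 16 lower (12.5%), against 20.2% and 10.4% of all gene starts. Without control replicate 2, 20 were higher (15.6%) and 5 lower (3.91%), against 23.6% and 3.16%, and without control replicate 3, 18 were higher (14.1%) and 9 lower (7.03%), against 23.3% and 3.92%.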

How the data were processed

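ATAC-seq libraries of sorted nuclei were analysed, 3 knockdown and 3 control, grouped by the genotype label. A general DNA library kit is named in the labels' protocols, and no transposition is mentioned there. The tools in the submitters' processing notes are BWA, MACS2, Picard, SAMtools 1.9, Trimmomatic and FastQC, and the build is mm10. What each did, what counted the reads, how regions were made and whether reads were shifted for transposase binding is not given in the sources used here. Per the file headers, each library has counts, RPKM and a score for the same 193148 regions. The deposited counts are whole and not normalized. The deposited RPKM values equal the count over region width and a library total, which gave the library totals, and were used for levels. The deposited score was not used. Because RPKM divides by the library total and CPM by reads in regions, the groups' ratio differs between the scales.

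Counts were tested with edgeR 4.0.16 in R 4.3.3 (quasi-likelihood test, TMM, its filter on low counts, group as the only term, Benjamini-Hochberg over 191693 regions). Alternatives were DESeq2 1.42.0 (Wald test), no filter, scaling by loess curves (limma 3.58.1), by reads in regions or by library totals, grouping by title, each library left out, knockdown replicate 2 alone (1 library in a group, assumed to vary like the others), no flank, and starts within 3 kb. On simulated counts for all 193148 regions with 200 changed ones, edgeR recovered 40 of 100 changed by 1 and 100 of 100 changed by 2 on the log2 scale, with 6 false calls. The changed regions were drawn only from those above a set mean count. All regions had the same spread between libraries, and all others were unchanged. Hox regions had medians of 20 to 53 reads in a library, so these figures are not error rates for the Hox regions. Exact permutation of 3 against 3 libraries cannot go below p = 0.1 and was not used. No pair of replicates agreed within sampling noise.

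Genes and starts come from the RefSeq tables of GRCm38.p6, which give bounds for all genes and a start for 22 of the 39 Hox genes; parts of genes such as exons were not distinguished, and a region may act on another gene than its nearest. Values by library are given for the most accessible region of each cluster, up to 10 called Hox regions in each direction by fold change, called Hox gene starts and up to 2 called regions per gene list and direction. Single values of a few genes are not reported here; their regions remain in the counts. Values by library of Hox gene starts that were not called were added after they were seen. The members and gene lists were chosen with earlier results of these data known.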

Additional observations from a re-analysis of the deposited data

How the results depend on the processing

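The 16 calls kept their direction in all 13 alternative fits. Calls kept were 13 with library totals, 14 with reads in regions, 14 with loess curves, 16 with no filter, 8 with DESeq2, 7 to 14 with 1 library left out, 5 with knockdown replicate 2 alone and 0 with grouping by title. Hox calls numbered 1 higher and 27 lower with library totals (1.64% and 44.3%), against 6.85% and 24.6% of all regions. They numbered 2 and 19 with reads in regions (3.28% and 31.1%), against 11.8% and 17.4%. With DESeq2 they numbered 2 and 6 (3.28% and 9.84%), against 10.9% and 7.69%. With grouping by title (edgeR) they numbered 0 and 0, as did those over all regions. With 1 library left out they ranged from 1 to 4 higher and 4 to 15 lower. Hox gene-start calls, 3 and 3, numbered 1 and 12 with library totals, 1 and 7 with reads in regions and 0 and 0 with grouping by title. Lower ones were 5 with loess curves and 6 within 3 kb, and higher ones 1 with DESeq2 and 0 with knockdown replicate 2 alone; with 1 library left out they ranged from 1 to 3 higher and 1 to 6 lower. The gene lists, 33 and 12, had 4 and 20 with library totals, 12 and 16 with loess curves (for the lists, chosen after seeing the data), and 18 to 36 higher and 5 to 11 lower with 1 library left out. The Hox median was -0.68 with library totals and -0.49 to -0.27 with 1 library left out. The Hoxd median, -0.21, turned to 0.058 with knockdown replicate 2 alone and ranged from -0.32 to 0.029 with 1 library left out. The median of all regions was -0.27 with library totals and -0.12 with reads in regions. The cause of these shifts was not tested. No paired analysis was possible because the titles share no number between groups. Low depth limits the Hox regions, which hold 1 to 310 reads a library.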
